A study of Mus musculus with 26 samples.

Results

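The CC chemokines and fractalkine of the mouse measured here were 9 genes, the CC chemokines *Ccl2*, *Ccl5*, *Ccl7*, *Ccl9*, *Ccl17*, *Ccl20*, *Ccl22* and *Ccl27a* and the CX3C chemokine *Cx3cl1* (fractalkine). They were taken by symbol from the deposited count table, which lists 56738 symbols, and all 9 were found there. The members were not picked by a threshold on their values. *Ccl2* and *Ccl9* are, however, genes that the study itself names from these libraries, so their direction is not independent evidence. It reported both as significantly upregulated in unstimulated *Pla2g4d*-deficient keratinocytes.

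Chemokines are small secreted proteins that steer leukocytes along a concentration gradient through G protein-coupled receptors. CC chemokines act on monocytes, dendritic cells, eosinophils and T cell subsets, whereas fractalkine is made as a membrane-anchored protein on a mucin stalk and becomes soluble after cleavage by ADAM proteases. In the epidermis keratinocytes are a source of several of them, and IL17A and TNFα, the cytokines used here, are key mediators of psoriatic inflammation that act on keratinocytes.

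The libraries came from primary keratinocytes of C57BL/6NJ mice aged 2 days, 5 of them WT and 8 homozygous for the *Pla2g4d* em1(IMPC)J allele, a germline CRISPR-Cas9 deletion of exon 3 (KO). *Pla2g4d* encodes a cytosolic phospholipase A2. Cells of every mouse were grown for 4 days in EpiLife medium with 0.06 mM CaCl2, a concentration that keeps keratinocytes from terminal differentiation, and were then either left untreated (basal) or exposed to IL17A together with TNFα, each at 20 ng/ml, over 24 h. Each of the 13 mice gave 1 basal and 1 treated library, for which wells of the same animal were pooled, so the 26 libraries fall into 4 groups of 5 WT and 8 KO libraries. IL17A and TNFα were always given together, and the effect of each alone cannot be told apart. The KO mice were bred as a homozygous line, and the labels do not link WT and KO animals as littermates.

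Total counts per library ranged from 42072745 to 78102858, and levels are given as CPM (counts scaled to the library total after TMM normalization), with limits for counts of 0 covering counting error only. The 95% intervals of log2 fold changes are those of the edgeR fit and include the spread between mice. Counts of the targeted gene do not check the deletion, since they cover the other exons too. Under basal conditions *Pla2g4d* lay between 1.22 and 4.63 CPM in WT cells, between 1.15 and 2.98 CPM in KO cells, and the ranges with cytokines (28.6 to 65.2 and 29.2 to 59.2 CPM) overlapped as well. In the edgeR test described below it was called lower in basal KO cells (log2 fold change -0.70, adjusted p = 0.0935). With cytokines the difference was -0.45 (adjusted p = 0.345) and was not called. The keratinocyte identity was clear from *Krt5* and *Krt14*, keratins of the basal layer, whose group means lay at 17055 to 21662 and 11291 to 16220 CPM, respectively. Libraries correlated with the mean of their group at a Spearman coefficient of 0.980 to 0.994, the lowest being KO basal replicate 4.

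Of the 9 members 5 had a mean normalized count over 10 and were tested, namely *Ccl2*, *Ccl9*, *Ccl20*, *Ccl27a* and *Cx3cl1*. The other 4 (*Ccl5*, *Ccl7*, *Ccl17* and *Ccl22*) did not pass this filter and are given as counts. A member was called changed at an adjusted p under 0.1 (quasi-likelihood test of edgeR, Benjamini-Hochberg adjusted over 16893 genes) and a fold change over 1.5. In WT cells cytokines raised 3 of the 5 tested members, *Ccl2*, *Ccl9* and *Ccl20*, while 13.9% of all tested genes were called in either direction. In KO cells 3 of 5 were called as well, against 10.9% of all genes. *Ccl9* passed the filter through its treated libraries, which held 202 (WT) and 257 (KO) counts in total. Its basal libraries held 10 and 74 counts in total. Its part in the 3 of 5 and in the medians below is thus not independent of the cytokine effect. Between the genotypes 1 of 5 was called under basal conditions, *Ccl2*, against 2.68% of all genes, and 0 of 5 in the presence of cytokines, against 0.704%. The interaction of genotype and cytokines was called for 0 of 5 members, against 0.219% of all genes. DESeq2 also called 0 in the latter 2 comparisons, and the unadjusted p was under 0.05 for 1 member with cytokines and for 1 member in the interaction. The median log2 fold change of the 5 tested members was 1.32 in WT and 1.26 in KO cells for the cytokine effect, beside 0.014 and 0.0046 over all genes. For the genotype effect it was 0.15 under basal conditions and -0.06 with cytokines, and for the interaction -0.20, beside 0.00038, -0.0078 and -0.013. Comparisons that use the same basal or treated libraries are not independent of each other.

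**Figure D1:**
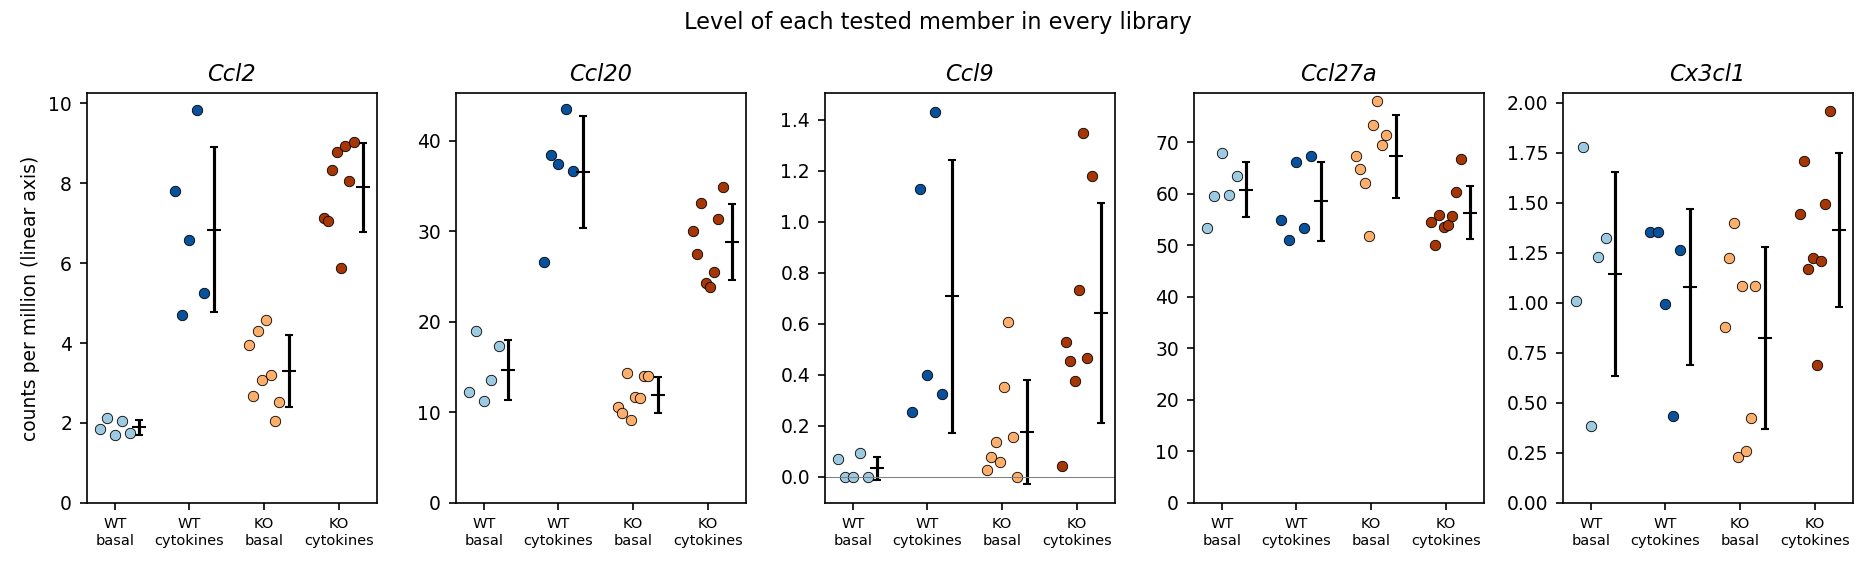
CPM of the 5 tested members in every library (linear axes that differ between panels, small points) with the group mean and SD beside them, for 5 WT and 8 KO mice under basal conditions or with IL17A/TNFα. For *Ccl2* and *Ccl20* the treated libraries exceeded all basal ones of their genotype, and 7 of 8 KO basal libraries exceeded the highest WT basal value of *Ccl2*.

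*Ccl2*, the ligand of CCR2 that draws monocytes, was the member that differed between the genotypes. It lies on the plus strand of chromosome 11 of GRCm39 (chr11:81926397-81928279). Under basal conditions the WT libraries held 1.84, 2.13, 1.71, 2.05 and 1.75 CPM (replicates 1 to 5), and the KO libraries ranged from 2.05 to 4.59 CPM with a median of 3.14. Thus 7 of 8 KO values exceeded the highest WT value, and the lowest KO value fell within the WT range. WT libraries averaged 1.90 ± 0.187 CPM (SD, n = 5), whereas KO libraries averaged 3.30 ± 0.903 CPM (SD, n = 8). The difference was a log2 fold change of 0.80 (standard error 0.19, 1.74-fold, adjusted p = 0.00511). With the mouse as replicate block (limma voom), which takes both libraries of an animal together, it was 0.79 with an adjusted p of 0.0515. Without KO basal replicate 4 and its treated library the value was 0.81 (adjusted p = 0.00736).

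With cytokines *Ccl2* reached 7.79, 4.71, 6.57, 9.84 and 5.25 CPM in WT replicates 1 to 5 and 5.88 to 9.04 CPM in KO cells, with a KO median of 8.19. All treated libraries lay above all basal libraries of the same genotype. The cytokine effect was 1.85 in WT (log2, 95% interval 1.43 to 2.26, adjusted p = 2.31e-08), whereas it was 1.26 for KO cells (95% interval 0.94 to 1.58, adjusted p = 1.75e-07). Within mice the log2 CPM was higher with cytokines in 5 of 5 WT mice (1.14 to 2.26) and in 8 of 8 KO mice (0.36 to 1.96). The smallest step was that of KO replicate 5, the mouse with the highest basal value. In the presence of cytokines the genotypes overlapped, with a log2 difference of KO and WT cells of 0.21 (95% interval -0.15 to 0.57, adjusted p = 0.631). The interaction was -0.59 (95% interval -1.10 to -0.07, adjusted p = 0.439) and was not called. In bulk libraries fewer cells of a type and less RNA per cell cannot be told apart, for *Ccl2* as for every member below.

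The summed level of 10 fibroblast markers, of which 8 were tested, followed a single gene, *Fn1*. The sum ranged from 117 to 177 CPM in WT basal, from 209 to 326 CPM in KO basal, from 190 to 381 CPM in treated WT and from 305 to 478 CPM in treated KO libraries. *Fn1* encodes fibronectin and is also expressed by cultured keratinocytes, and basal KO cells held 237 ± 35.0 CPM (SD, n = 8) of it beside 115 ± 20.1 CPM (SD, n = 5) for WT (log2 fold change 1.05, adjusted p = 1.15e-05). The collagen genes *Col1a1* and *Col1a2*, which are typical of fibroblasts, stayed at or under 2.23 CPM in every library, and neither was called between the genotypes. Under basal conditions 5 of the 8 tested markers had lower values in KO than in WT cells, none of these 5 called. Among them were *Col3a1* (-1.10) and *Col1a2* (-0.68). *Dcn* (0.76) and *Vim* (0.07) had higher values, as *Fn1* did, but were not called. The median of the 8 was -0.30, against the direction of *Fn1* and of the sum. Median values for the cytokine effect were 0.15 in WT and -0.28 in KO cells, with *Col1a2* called lower in both (-1.67 and -1.01). The part of fibroblasts in the *Ccl2* difference was not tested.

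*Ccl7*, a further ligand of CCR2 that shares the monocyte attractant function, is the plus-strand neighbour of *Ccl2* (chr11:81936532-81938351), 8252 bp downstream with no annotated gene between them. It had 0 counts in all 10 WT libraries. Counts were found in 6 KO libraries, namely 6, 10 and 4 counts in KO basal replicates 3, 5 and 6 and 8, 6 and 2 counts in treated KO replicates 3, 6 and 7. The other KO libraries held 0 counts, and 3 counts, the limit that a count of 0 allows, correspond to 0.0384 to 0.0713 CPM across the libraries. In a fit without the filter, where all members but *Ccl17* could be tested, *Ccl7* had an adjusted p of 0.184 between the genotypes under basal conditions and 0.295 with cytokines. A change like that of *Ccl2* was not detectable at this depth.

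*Ccl5*, which acts on T cells and monocytes, lies on the minus strand of the same chromosome (chr11:83416602-83425942). It was detected in 8 of 26 libraries, 6 of them treated KO libraries with 2, 4, 20, 8, 17 and 20 counts. The other 2 were WT replicate 5 with cytokines (8 counts) and KO basal replicate 7 (12 counts). No WT basal library held a count. Without the filter the adjusted p was 0.226 for the cytokine effect in KO cells, 0.167 for that in WT cells and 0.492 for the genotype effect with cytokines.

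*Ccl9*, a CCR1 ligand of rodents made largely by myeloid cells, lies on the minus strand 37802 bp from *Ccl5* (chr11:83463745-83473161), with 4 annotated loci but no protein-coding gene between them. Its levels were close to the detection limit. Under basal conditions 3 of 5 WT libraries held 0 counts and the other 2 held 4 and 6 counts (0.0694 and 0.0944 CPM), whereas the KO libraries ranged from 0 to 28 counts (0 to 0.607 CPM, median 0.107), with 1 at 0. With cytokines WT replicates 1 to 5 held 18, 80, 20, 66 and 18 counts (0.254, 1.13, 0.398, 1.43 and 0.325 CPM) and the KO libraries 2 to 58 counts (0.0425 to 1.35 CPM, median 0.497). The treated WT libraries lay above all WT basal libraries, whereas in KO cells 3 of 8 treated libraries exceeded all basal ones and the ranges overlapped.

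The cytokine effect on *Ccl9* was a log2 fold change of 4.25 in WT (95% interval 2.20 to 6.31, adjusted p = 0.00138), and that of KO cells was 1.88 (95% interval 0.49 to 3.26, adjusted p = 0.0360). All 13 mice had a higher CPM with cytokines than without, but KO replicate 1 held 2 counts in each of its libraries, under the limit of 3 counts, so that its difference came from the library totals alone. With 3 of 5 WT basal libraries at 0, the fitted values depend on the prior count, and with a prior count of 2 in place of the default the WT effect was 3.401. Without KO replicate 8, whose basal library held 0 and whose treated library held 56 counts, the effect in KO cells was 1.497 and no longer called (adjusted p = 0.103). Between the genotypes the log2 difference of KO and WT cells was 2.24 under basal conditions (95% interval 0.29 to 4.18, adjusted p = 0.149, and 1.57 with a prior count of 2) and -0.14 with cytokines (95% interval -1.62 to 1.33). DESeq2 gave 2.35 (adjusted p = 0.0589) under basal conditions and edgeR without KO replicate 8 gave 2.42 (adjusted p = 0.0868), so that the basal call depends on the tool and on this animal. The study, which reported *Ccl9* as upregulated in basal KO cells, used DESeq2. The interaction was -2.38 (95% interval -4.79 to 0.04, adjusted p = 0.557), or -1.71 with the higher prior count.

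*Ccl6*, the next gene (minus strand, chr11:83478708-83483913, 5546 bp from *Ccl9*) and likewise a CCR1 ligand, is not a member. In WT cells (n = 5) it went from 0.239 ± 0.102 CPM under basal conditions to 1.01 ± 0.701 CPM with cytokines, in KO cells (n = 8) from 0.375 ± 0.226 to 1.70 ± 1.16 CPM (SD). The cytokine effect was 2.09 in WT (adjusted p = 0.00512) and 2.17 in KO cells (adjusted p = 0.000247). Thus *Ccl9* and *Ccl6*, which lie side by side, were both called higher with cytokines in both genotypes. *Ccl6* did not pass the test between the genotypes (adjusted p = 0.512 under basal conditions and 0.501 with cytokines).

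Markers of myeloid and dendritic cells, which are known producers of *Ccl6* and *Ccl9*, were measured beside them. Of 16 listed markers 9 were tested. Their summed level was 23.9 to 35.5 CPM in WT basal, 22.9 to 44.4 CPM in KO basal, 35.1 to 56.3 CPM in treated WT and 30.2 to 60.7 CPM in treated KO libraries. *Cd68*, a lysosomal protein found beyond macrophages, made up most of this sum (20.1 ± 2.68 CPM in WT basal cells, SD, n = 5) and was called higher with cytokines in WT cells (log2 fold change 0.75, adjusted p = 0.000538). In KO cells *Cd14*, a monocyte receptor for lipopolysaccharide, was called higher with cytokines (0.76, adjusted p = 0.00566). *H2-Ab1*, of the class II antigen presentation complex, was called lower for basal KO cells relative to WT (-1.75, adjusted p = 0.0600). Its basal libraries held only 12 to 24 counts in WT and 0 to 14 counts in KO cells. The other tested markers went both ways between the genotypes under basal conditions, none of them called. *Mrc1* (1.04), *Lyz2* (0.999), *Tyrobp* (0.53) and *Itgam* (0.45) had higher values in KO cells. *Fcer1g* (-0.47), *Cd68* (-0.07), *Csf1r* (-0.06) and *Cd14* (-0.02) had lower values. The median of the 9 tested markers was 0.30 and 0.19 for the cytokine effect in WT and KO cells, and -0.023 and 0.21 for the genotype effect without and with cytokines. The Langerhans cell marker *Cd207* and *H2-Aa* were at 0 in all libraries, and the leukocyte marker *Ptprc* reached at most 0.116 CPM. The summed level of 10 lymphocyte markers was 0.972 to 1.77, 0.0813 to 2.25, 0.159 to 1.03 and 0.438 to 1.02 CPM in the same order of groups, 1 of the 10 was tested, and *Cd3d*, *Cd3g* and *Ncr1* were at 0 throughout. The part of such cells in the *Ccl9* values was not tested.

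*Ccl20*, the only known chemokine ligand of CCR6, recruits IL17-producing T cells and dendritic cells and is a target of IL17A and TNFα signalling in keratinocytes. It lies on the plus strand of chromosome 1 (chr1:83094487-83096888). WT basal replicates 1 to 5 held 12.2, 19.0, 11.3, 13.6 and 17.3 CPM, and the KO basal libraries ranged from 9.12 to 14.4 CPM with a median of 11.7. With cytokines the WT libraries held 26.6, 38.5, 37.5, 43.5 and 36.6 CPM and the KO libraries 23.8 to 34.9 CPM (median 28.8). In both genotypes every treated library lay above every basal one.

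The cytokine effect on *Ccl20* was nearly the same in both genotypes, with a log2 fold change of 1.32 for WT (standard error 0.15, 2.49-fold, adjusted p = 4.22e-08) beside 1.27 for KO (standard error 0.12, 2.42-fold, adjusted p = 8.25e-10). The interaction was -0.04 with a 95% interval of -0.43 to 0.34, which leaves room for a difference in either direction. Within mice the change was 1.02 to 1.73 in WT and 1.03 to 1.499 in KO animals. KO cells held less *Ccl20* on average in both conditions, with a log2 difference of -0.30 under basal conditions (95% interval -0.57 to -0.02, adjusted p = 0.177) and -0.34 with cytokines (95% interval -0.61 to -0.07, adjusted p = 0.197). With cytokines 4 of 5 WT libraries lay above all KO libraries, and WT replicate 1 was the exception. Neither difference was called. When both conditions were averaged with the mouse as replicate block (limma voom), a comparison added after these values were seen, the difference was -0.29 (95% interval -0.50 to -0.09, adjusted p = 0.0579), less than the 1.5-fold required for a call. In this averaged comparison 2.32% of all genes and 0 of the 5 tested members were called, and *Ccl2* had a log2 difference of 0.54 (adjusted p = 0.0275).

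**Figure D2:**
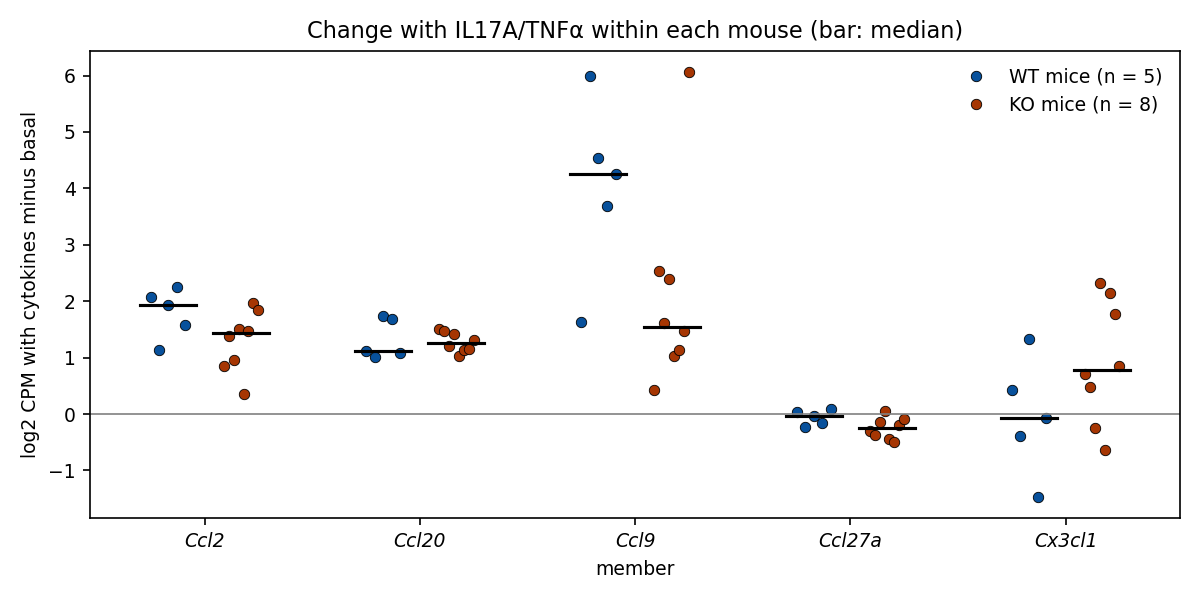
Change in log2 CPM from the basal to the treated library of the same mouse for each tested member, with points for 5 WT and 8 KO mice and a bar at the median. *Ccl2* and *Ccl20* were higher with cytokines in all 13 mice, as was the CPM of *Ccl9*, although KO replicate 1 had 2 *Ccl9* counts in both libraries. *Ccl27a* lay between -0.22 and 0.09 in WT mice and was lower in 7 of 8 KO mice (median -0.25), and *Cx3cl1* moved in both directions.

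Since *Ccl20* and *Ccl9* responded to cytokines, the 250 bases before their RefSeq start are shown, with *Ccl17*, which was not detected, for comparison. The windows are from RefSeq (table build GRCm38.p6), each matched to 1 place in GRCm39, whose coordinates are given, and are printed on the strand of the gene. They lie at chr1:83094237-83094486 (plus strand, *Ccl20*), chr11:83469463-83469712 (minus strand, *Ccl9*) and chr8:95536831-95537080 (plus strand, *Ccl17*). Only the *Ccl20* window ends directly before the annotated gene. Those of *Ccl9* and *Ccl17* lie within the annotated gene spans, downstream of the outermost annotated start. The windows of *Ccl22*, *Ccl27a* and *Cx3cl1*, which are not printed, also lie wholly or partly within their gene spans. Capitals mark matches to the NF-κB consensus, to the AP-1 motif TGANTCA, to the C/EBP motif TTGCNNAA (these 3 on both strands) and to the TATA box TATAAA on the strand of the gene.
Ccl20: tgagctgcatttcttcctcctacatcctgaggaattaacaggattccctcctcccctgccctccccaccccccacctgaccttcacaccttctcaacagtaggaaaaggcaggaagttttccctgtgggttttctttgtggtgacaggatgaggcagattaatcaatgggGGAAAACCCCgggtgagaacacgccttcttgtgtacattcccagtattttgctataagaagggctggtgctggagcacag
Ccl9: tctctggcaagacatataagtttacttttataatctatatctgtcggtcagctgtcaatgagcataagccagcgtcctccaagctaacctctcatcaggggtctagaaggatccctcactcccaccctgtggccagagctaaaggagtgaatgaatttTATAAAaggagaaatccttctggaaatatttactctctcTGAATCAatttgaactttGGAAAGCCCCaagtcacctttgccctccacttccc
Ccl17: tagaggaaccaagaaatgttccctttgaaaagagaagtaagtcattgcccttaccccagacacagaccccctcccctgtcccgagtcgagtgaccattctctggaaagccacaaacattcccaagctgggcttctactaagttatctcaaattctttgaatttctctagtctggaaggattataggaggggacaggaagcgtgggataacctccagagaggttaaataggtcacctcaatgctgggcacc
The *Ccl20* window held 1 NF-κB match, beginning 80 bases before the start. The *Ccl9* window held 1 NF-κB match beginning 35 bases before the start, 1 AP-1 match upstream of it and a TATA box 92 bases before the start. The *Ccl17* window held no match to these motifs. Windows were found for 6 of the 9 members (8 windows), and none for *Ccl2*, *Ccl5* and *Ccl7*. The NF-κB consensus had no match in the windows of *Ccl17*, *Ccl22*, *Ccl27a* and *Cx3cl1*. Of the 3 *Ccl27a* windows 1 held the AP-1 motif and 2 the C/EBP motif, the *Cx3cl1* window held a TATA box, and the *Ccl22* window held no match. Of all 32851 windows of this length, 7.25% held the NF-κB consensus, 6.75% the AP-1 motif, 9.56% the C/EBP motif and 7.59% the TATA box. The motifs were chosen after the members were known, and a match is a description of the sequence.

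*Ccl17* and *Ccl22*, the ligands of CCR4 that are typical of dendritic cells and attract type 2 helper and regulatory T cells, flank *Cx3cl1* on the plus strand of chromosome 8. *Ccl17* (chr8:95534358-95538664) had 0 counts in all 26 libraries, which allows a level of up to 0.00207 CPM (3 counts over all libraries together). *Ccl22* (chr8:95471226-95478327) held counts in 7 libraries. These were WT basal replicates 2, 3 and 4 (2, 2 and 8 counts), KO basal replicates 1, 3 and 5 (6, 6 and 8 counts) and treated KO replicate 5 (10 counts). No treated WT library held a *Ccl22* count, and without the filter the adjusted p was 0.124 for the cytokine effect in WT cells and at least 0.317 in the other comparisons.

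**Figure D3:**
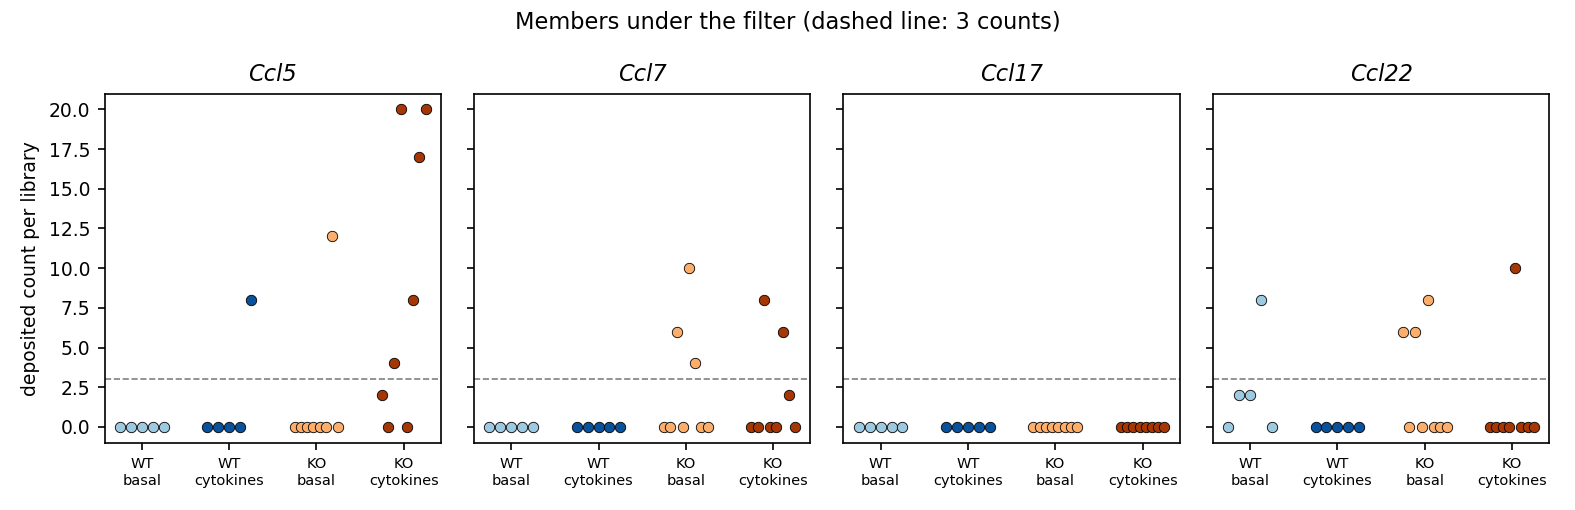
Deposited counts per library of the 4 members under the filter in the 4 groups (linear axis shared by the panels), with a dashed line at 3 counts. *Ccl17* was at 0 in all 26 libraries, *Ccl7* was above 0 in KO libraries only, and no library exceeded 20 counts for any of the 4.

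*Ccl27a*, the CCR10 ligand that attracts skin-homing T cells and is made constitutively by keratinocytes, lies on the minus strand of chromosome 4 (chr4:41769467-41774639). It was the most abundant member under basal conditions. WT basal replicates 1 to 5 held 53.3, 59.5, 67.8, 59.8 and 63.3 CPM, and treated ones 54.8, 51.0, 66.2, 53.3 and 67.4 CPM. KO libraries ranged from 51.7 to 78.01 CPM (median 68.4) under basal conditions and from 50.0 to 66.7 CPM (median 55.1) with cytokines. The groups overlapped in each comparison.

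In WT cells the log2 difference with cytokines was -0.05 for *Ccl27a* (95% interval -0.24 to 0.14, adjusted p = 0.717). In KO cells it was -0.25 (95% interval -0.40 to -0.11, adjusted p = 0.00783), which passed the adjusted p but not the fold change, and 7 of 8 KO mice were lower with cytokines. The interaction was -0.20 (95% interval -0.44 to 0.04, adjusted p = 0.640), so that the effects were not shown to differ. KO and WT cells differed by 0.15 under basal conditions (95% interval -0.03 to 0.32) and by -0.06 with cytokines (95% interval -0.23 to 0.11). Its counts are uncertain in 2 ways. The near-identical copies *Ccl27b* and *Gm13306* were counted at most 37 times per library, and how reads shared with them were treated is not given in the sources used here. The gene also overlaps *Il11ra1* on the opposite strand by 19 bp and a long noncoding RNA by 992 bp, and the strand setting of the counting is not stated. *Ccl5*, *Ccl9* and *Cx3cl1* likewise overlap long noncoding RNAs of the opposite strand, by 2711, 280 and 1580 bp.

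*Cx3cl1*, the ligand of CX3CR1 on monocytes, Langerhans cells and cytotoxic lymphocytes, lies 20309 bp from *Ccl22* and 25302 bp from *Ccl17* (chr8:95498637-95509055). WT basal replicates 1 to 5 held 1.01, 1.78, 0.386, 1.23 and 1.32 CPM and treated ones 1.36, 1.35, 0.995, 0.433 and 1.26 CPM. KO libraries ranged from 0.230 to 1.40 CPM (median 0.982) under basal conditions and from 0.689 to 1.96 CPM (median 1.33) with cytokines. Within a group the lowest and highest libraries thus differed several-fold, and all groups overlapped.

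The change of *Cx3cl1* with cytokines was inconsistent between mice. It was higher in 2 and lower in 3 of 5 WT mice (log2 fold change -0.07, 95% interval -0.95 to 0.80, adjusted p = 0.925). In KO cells 6 of 8 mice were higher, and the log2 fold change was 0.72 (95% interval 0.03 to 1.42, adjusted p = 0.115), which was not called. With the mouse as replicate block it was 0.90 (adjusted p = 0.0542) and was called. DESeq2 (adjusted p = 0.0882) and limma on the deposited log2 values (adjusted p = 0.0685) called it too, as did edgeR without KO replicate 3, KO replicate 5 or WT replicate 3 (adjusted p = 0.0714, 0.0733 and 0.0988). The interaction was 0.80 (95% interval -0.32 to 1.92, adjusted p = 0.716) and the genotype difference -0.47 under basal conditions (95% interval -1.26 to 0.32) and 0.33 with cytokines (95% interval -0.47 to 1.12). Neither the interaction nor these genotype differences were called.

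**Figure D4:**
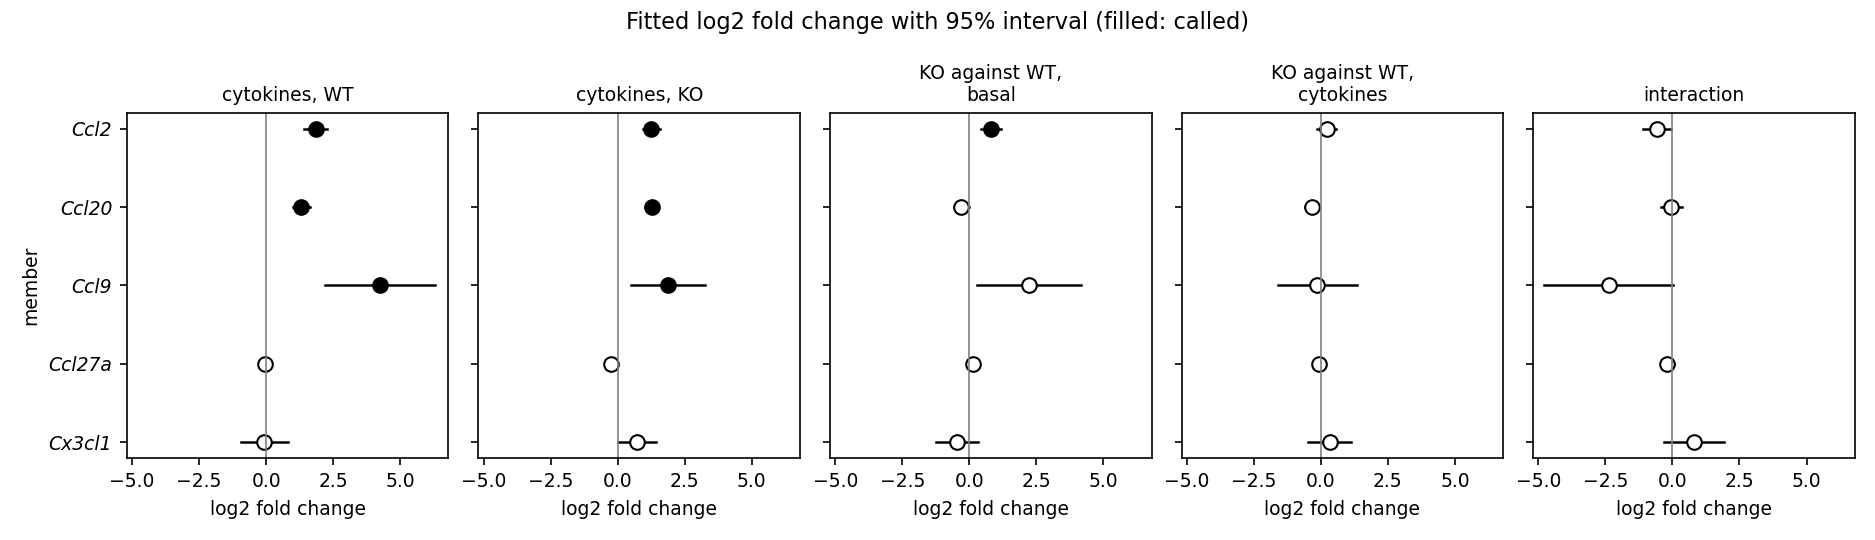
Fitted log2 fold change of the 5 tested members (points) with 95% intervals (lines) in the 5 comparisons, with filled points for those called at an adjusted p under 0.1 and over 1.5-fold. *Ccl2*, *Ccl20* and *Ccl9* were called for the cytokine effect in WT and KO cells, *Ccl2* also between the genotypes under basal conditions.

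Levels between members were compared per length of the annotated exons (RPKM). Under basal conditions the order of mean levels was *Ccl27a*, *Ccl20*, *Ccl2* and *Cx3cl1* in both genotypes, at 22.5 ± 1.97, 10.3 ± 2.35, 1.67 ± 0.164 and 0.288 ± 0.128 RPKM for WT (SD, n = 5) and 24.9 ± 2.96, 8.40 ± 1.42, 2.90 ± 0.794 and 0.207 ± 0.115 RPKM in KO cells (SD, n = 8). In WT cells neighbours among these 4 lay more than 1 SD apart, whereas in KO cells *Cx3cl1* and *Ccl9* (0.0566 ± 0.0659 RPKM) overlapped. With cytokines *Ccl20* reached the level of *Ccl27a*, at 25.7 ± 4.33 against 21.7 ± 2.83 RPKM in WT and 20.3 ± 2.93 against 20.9 ± 1.89 RPKM in KO cells, and the pair could not be ordered beyond the spread. *Ccl2* followed with 6.00 ± 1.81 and 6.94 ± 0.985 RPKM, and *Cx3cl1* (0.272 ± 0.0983 and 0.343 ± 0.0969 RPKM) and *Ccl9* (0.227 ± 0.172 and 0.206 ± 0.139 RPKM) overlapped. The level of *Ccl27a* depends on its length. With its longest transcript in place of all annotated exons it was 61.0 and 67.5 RPKM in WT and KO basal cells and 58.8 and 56.5 RPKM with cytokines, so that it stood above *Ccl20* in every group.

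**Figure D5:**
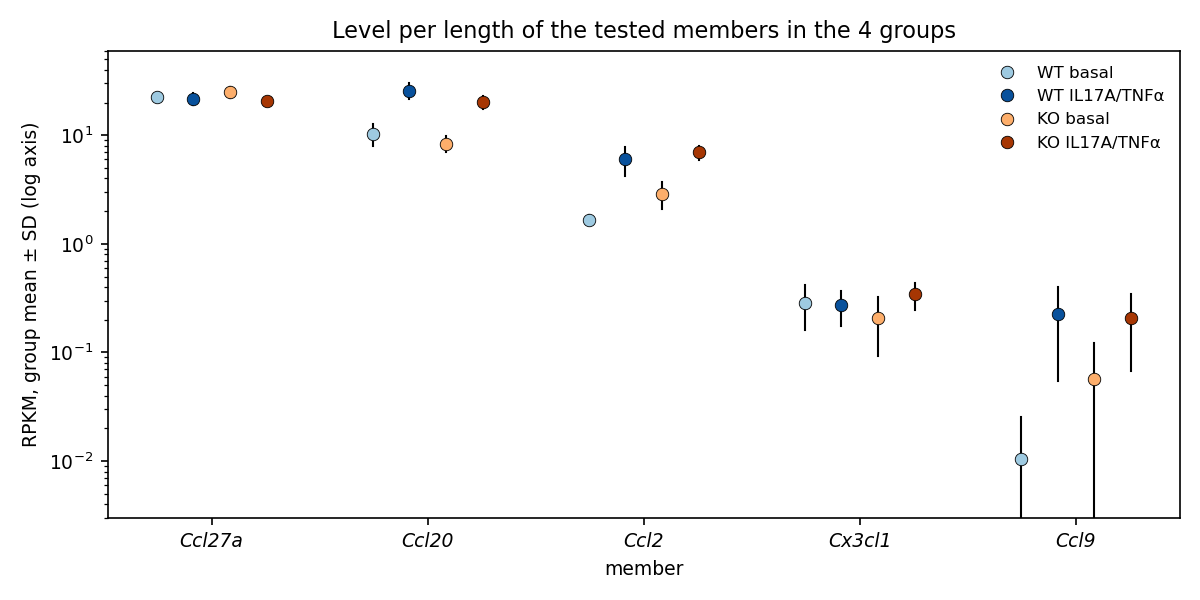
Mean RPKM of the 5 tested members in the 4 groups on a log axis, with SD (5 WT and 8 KO libraries, lower ends limited to the axis). Per length of all annotated exons *Ccl20* rose to the level of *Ccl27a* with cytokines. With the longest transcript as length *Ccl27a* stood above *Ccl20* in every group. *Cx3cl1* and *Ccl9* lay below 1 RPKM in all groups.

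The receptors of these ligands were rare in the cultures. Of 15 CC and CX3C receptors 5 were tested, *Ccr2* and *Ackr1* were at 0 in all libraries, and the summed level of all 15 was at most 6.84 CPM. *Ccr1*, *Ccr3* and *Ccr4* were called higher with cytokines in WT cells, *Ccr1* and *Ccr3* in KO cells, and 0 of 5 between the genotypes (median log2 fold change 1.68, 1.05, 0.34 and -0.10 in the 4 comparisons). *Ccr3*, the eotaxin receptor of eosinophils, went from 0.0307 ± 0.0514 to 0.506 ± 0.123 CPM (SD, n = 5) with cytokines in WT cells, a log2 fold change of 3.99 (adjusted p = 0.00193), and rose by 3.83 in KO cells (adjusted p = 0.000126). Its basal libraries held only 0 to 6 counts in WT and 0 to 8 counts in KO cells, so the size of these fold changes is uncertain. *Ccr3* passed the filter through its treated libraries (14 to 36 counts in WT and 4 to 72 in KO cells). *Ccr4* was low as well, with 2 to 14 counts in basal and 14 to 40 in treated WT libraries. The part of *Ccr3* and *Ccr4* in the receptor calls and medians for cytokines is thus not independent of the cytokine effect. *Ccr1* rose by 1.73 in WT (adjusted p = 0.0161) and 1.09 in KO cells (adjusted p = 0.0533).

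All 10 listed genes that process chemokines were tested. Cytokines raised 3 and lowered 2 of them in WT and likewise in KO cells (median 0.20 and 0.11), and 0 of 10 were called between the genotypes in either condition (median 0.024 and 0.0078). *Mmp9*, a gelatinase that trims chemokines, rose by a log2 fold change of 3.57 in WT and 2.87 in KO cells (adjusted p = 2.15e-13 and 4.40e-14). *Mmp2* rose by 1.03 and 1.30, *Rhbdf1*, a regulator of ADAM17, by 0.95 and 0.84. *Dpp4*, a peptidase that removes the first residues of several chemokines, fell by 1.74 in WT and fell by 1.51 in KO cells, and *Timp3*, an inhibitor of ADAM and matrix metalloproteinases, fell by 0.68 and fell by 0.81 (log2). Between the genotypes some passed the adjusted p but not the fold change. Under basal conditions these were *Timp3* (0.38, adjusted p = 0.000994), *Mmp9* (0.58, adjusted p = 0.0605) and *Dpp4* (-0.57, adjusted p = 0.0749). With cytokines it was *Timp3* (0.24, adjusted p = 0.0967). *Adam10* and *Adam17*, the sheddases of fractalkine, named after their values were seen, lay at 152 to 172 and 88.9 to 104 CPM in the group means and were not called in any comparison. With cytokines both passed the adjusted p but not the fold change. *Adam17* was higher in WT (log2 fold change 0.15, adjusted p = 0.00755) and KO cells (0.22, adjusted p = 6.74e-06). *Adam10* was lower in WT (-0.18, adjusted p = 0.00768) and KO cells (-0.10, adjusted p = 0.0628).

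On a list of 16 other ligands (CC chemokines and *Xcl1*) 3 were tested, 10 were at 0 in all libraries, and *Ccl6* was the only one of these 3 called, higher with cytokines in both genotypes (median of the 3 for the cytokine effect 0.38 in WT and 0.12 in KO cells). Among 15 CXC ligands 8 were tested. Cytokines raised 7 and lowered 1 of them in WT and raised 6 and lowered 1 in KO cells (median 3.35 and 2.14). *Cxcl3* and *Cxcl5* held at most 14 and 22 counts in WT basal and 26 and 38 counts in KO basal libraries. They passed the filter largely through their treated libraries, so their part in these calls and medians is not independent of the cytokine effect. Between the genotypes 3 of 8 were called under basal conditions, beside 2.68% of all genes, and 0 of 8 with cytokines, beside 0.704% (median 1.02 and 0.22). Those called were *Cxcl1*, *Cxcl2* and *Cxcl12*, higher in KO cells (log2 fold change 1.07, 1.55 and 0.66), as was *Ccl2* among the members. The study names all of these as upregulated in basal KO cells from these libraries, so their shared direction is not independent evidence. The interaction was called for *Cxcl1* and *Cxcl12* (-0.83 and -1.02, adjusted p = 0.0484 and 0.0587), and not for *Ccl2* (-0.59, adjusted p = 0.439).

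The genes whose log2 CPM was most like a member were sought among 11854 genes with a mean normalized count over 100. For *Ccl2* these were *Parva* and *Hivep3* (Pearson r = 0.948 and 0.945 over 26 libraries), for *Ccl20* *Gjb6* and *Sprr2h* (r = 0.982 and 0.979), and for *Ccl27a* *Aptx* and *Jun* (r = 0.784 and 0.766). By Spearman's coefficient *Gjb6* and *Sprr2h* remained for *Ccl20* (0.971 and 0.959), while *Rab32* and *Cxcl1* led for *Ccl2* and *Rn7sk* and *Adm* for *Ccl27a*. The libraries share mice and 2 treatments, so these coefficients mostly describe the group means. *Gjb6*, a connexin, had 9.17 ± 2.95 and 6.60 ± 2.23 CPM in WT (n = 5) and KO (n = 8) basal cells and 44.5 ± 11.3 and 28.5 ± 6.46 CPM with cytokines (SD). After the group means were removed, the 10 pairs of tested members correlated at -0.22 to 0.34 over 26 libraries. *Ccl20* and *Cx3cl1* were highest and *Ccl9* and *Cx3cl1* lowest.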

How the data were processed

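Per the labels and the methods of the study, RNA of primary keratinocytes was sequenced as stranded, paired-end TruSeq libraries, aligned to mm39 with STAR 2.7.10b and counted per gene with featureCounts 2.0.6 and GENCODE. The authors deposited raw counts per gene symbol without normalization, and they deposited log2 normalized counts, used only in an alternative. The main test was edgeR 4.0.16 in R 4.3.3 (TMM, quasi-likelihood fit of 4 groups, no covariate) on genes with a mean normalized count over 10, with Benjamini-Hochberg adjustment over 16893 genes. Standard errors derive from the F statistic, with log2 CPM taken after adding a prior count of 1. DESeq2 1.42.0 and limma 3.58.1 served as alternatives. Positions and exon lengths are from GRCm39 with a later GENCODE release than that used for counting. The procedure was tested on simulated data.

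Both libraries of a mouse share its number, and the methods of the study treat each animal separately, so numbers pair libraries. Genes of the sex chromosomes were alike in 13 of 13 pairs, and deviations from group means correlated at 0.00051 to 0.25 (median 0.11). Depths of 42072745 to 78102858 counts leave counting error large only for the rare members. Among values of 1 to 20 counts 83.2% were even, so reads of a pair may have been counted singly, and an alternative with halved counts was added after seeing this. The members and gene lists were chosen with earlier results of these data known. The rule for genes named beside the 9 members took, from the lists of chemokines, receptors and processing genes, those called in a comparison (values for at most 5 of a list, by fold), and the 2 genes most correlated with each member of mean normalized count over 100. Outside this rule, chosen after their values were seen, are the genes named from the cell type marker lists, *Adam10*, *Adam17*, *Cxcl12* and receptors and markers named as at 0. The other alternatives are given in the closing section. Litters and sequencing batches are not given in the labels.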

Additional observations from a re-analysis of the deposited data

How the results depend on the processing

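The cytokine calls of *Ccl2* and *Ccl20* and the basal genotype call of *Ccl2* held under DESeq2, DESeq2 size factors, limma on the deposited log2 values, no filter, filterByExpr, a prior count of 2, an adjusted p under 0.05, no fold threshold, only the 2 groups compared, the mouse as replicate block, halved counts and every mouse left out. Of 270 member values under alternatives other than mice left out, 265 kept call and direction and 5 became called (*Cx3cl1* in KO cells by 3 of these, *Ccl27a* in KO cells without a fold threshold and basal *Ccl9* by DESeq2). Of 325 values with a mouse left out, 313 kept both. Under basal conditions the number of members called between the genotypes was 2 with DESeq2 and 1 to 2 with a mouse left out. Direction was not stable for the *Ccl20* interaction (-0.13 to 0.054 with a mouse left out), the genotype effect on *Ccl9* with cytokines (-0.38 to 0.27) and the cytokine effect on *Cx3cl1* in WT cells (-0.27 to 0.15), all of them uncalled. With the paired fit (replicate block) members called were 3, 4, 1, 0 and 0 in the cytokine, genotype and interaction comparisons, the change being *Cx3cl1*, and among all genes 80 instead of 37 were called for the interaction. Over all genes the cytokine calls were 6221 (WT) and 6048 (KO) without a fold threshold beside 2349 and 1837, and 3305 in KO cells without the filter, and the basal genotype calls were 2303 without a fold threshold and 824 without WT replicate 1 beside 453. Genotype calls with cytokines (119) were 54 at an adjusted p under 0.05, 64 by limma on log2 values, 180 with only the 2 groups and 479 without a fold threshold, and interaction calls (37) were 21, 24 and 166 at that adjusted p, by limma and without a fold threshold, 60 by DESeq2 and 18 to 92 with a mouse left out. The genotype calls with cytokines ranged from 44 (without WT replicate 3) to 558 (without WT replicate 1). The causes were not tested. Depth limits *Ccl5*, *Ccl7*, *Ccl9*, *Ccl17* and *Ccl22*.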

Other observations

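Further marker lists were measured beside the members. All 10 keratinocyte markers were tested, and *Krt15*, *Krt1* and *Krt10* fell with cytokines in both genotypes (log2 fold change -2.25, -4.34 and -5.00 in WT and -1.76, -5.01 and -5.64 in KO cells). *Krt1* and *Krt10*, keratins of suprabasal cells, were lower in KO than in WT cells with cytokines (-1.42 and -1.15), and *Krt1* also under basal conditions (-0.75). The summed level of the list was 44302 to 48980 CPM in WT basal, 42491 to 48694 CPM in KO basal, 34227 to 36416 CPM in treated WT and 34898 to 36208 CPM in treated KO libraries. All 8 melanocyte markers were tested and summed to 453 to 641, 493 to 659, 351 to 502 and 326 to 429 CPM in the same order, with *Tyr* and *Mitf* called lower with cytokines in both genotypes and *Dct* and *Pmel* in KO cells. The median of the 8 for the cytokine effect was -0.31 in WT and -0.65 in KO cells. *Kit* (0.40 and 0.22) and *Sox10* (0.19 and 0.05) had higher values with cytokines in WT and KO cells, neither of them called. Of 7 endothelial markers 3 were tested, *Emcn* and *Cldn5* were at 0 in all libraries, and the list summed to 2.47 to 4.44, 2.44 to 5.62, 4.06 to 6.74 and 5.23 to 6.86 CPM. With cytokines *Pecam1* and *Kdr* were called higher (log2 fold change 1.68 and 0.87 in WT, 0.59 and 0.99 in KO cells) and *Vwf* lower (-0.97 and -0.77). Between the genotypes under basal conditions *Pecam1* was called higher in KO cells (0.95, adjusted p = 0.0195), whereas *Kdr* (0.30) and *Vwf* (-0.37) were not called. Of 43 values above 0 for *Ccl5*, *Ccl7*, *Ccl9* and *Ccl22*, 41 were even.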
